A study of Mus musculus with 4 samples.

Results

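The genes examined were 10 genes that are widely used to mark stem or stem-like cells, namely Cd44, Klf4, Notch1, Bmi1, Aldh1a1, Sox2, Pou5f1, Nanog, Prom1 and Kit. They were taken by symbol from the 32285 gene rows of the matrices, and each symbol had 1 row. The UMIs (unique molecular identifiers, each standing for 1 captured RNA molecule) of each gene were divided among tumor, myeloid, B, T and other cells, to show which cells carried the signal and how far the make-up of a library moved the level over all its cells.

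The data are droplet single-cell RNA sequencing (10x Genomics, 3′ end) of tumors formed by DLA cells, a mouse ascites lymphoma, transplanted into Swiss albino mice. Libraries Control 1 and Control 2 came from control mice, and Treated 1 and Treated 2 came from mice treated with SP11, an oral HSP90 inhibitor. The labels call the controls untreated while the supplement speaks of vehicle, so whether they received the vehicle is not settled. The age and sex of the mice and any pooling of animals are not given in the sources used here. The labels name separate samples but not whether each came from its own animal, so p-values measure the spread between these samples only. Tumor tissue was digested with collagenase and DNase, and red cells were lysed before loading.

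No single gene defines a stem cell. CD44 is a surface receptor for hyaluronan that activated leukocytes carry in quantity as well as some carcinoma cells, and NOTCH1 is a receptor that is cleaved on contact with a neighbouring cell and then acts on transcription. KLF4, SOX2, OCT4 (the product of Pou5f1) and NANOG are transcription factors of pluripotent cells, and KLF4 is also made in epithelia and in monocytes. BMI1 is a subunit of Polycomb repressive complex 1, which silences genes such as the cell cycle inhibitors of the Cdkn2a locus. ALDH1A1 oxidises retinaldehyde, PROM1 (CD133) is a membrane glycoprotein, and KIT is the stem cell factor receptor of blood progenitors and mast cells.

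After cells with at least 200 genes and at most 10% mitochondrial UMIs were kept, the libraries held 916 and 566 (controls) and 1831 and 1091 (treated) cells, with 9574906 to 13024964 UMIs each. A cell with at least 5 UMIs of Krt8 and Krt18 together was taken as a tumor cell. The others went to the myeloid, B or T class by 12, 6 and 6 marker genes, none of them among the 10 genes. The labels give the cells as lymphoma, but 5 of 6 further epithelial markers (among Krt7, Krt19, Epcam, Cldn4, Cldn7 and Cdh1) were detected in the tumor class at a summed 1731 to 2749 CPM, that is UMIs of the genes scaled to a total of 1000000 UMIs of the class. "Tumor cells" therefore means keratin-positive cells here. A list of 8 further myeloid markers summed to 13266 to 22038 CPM in the myeloid class, against 105 to 352 CPM in the tumor class. The tumor class made up 92.2% and 93.3% of the control cells against 68.6% and 53.3% of the treated cells, and the myeloid class 4.48% and 4.42% against 16.3% and 21.2%. Of B cells there were 1 and 0 in the control libraries against 169 and 157 in the treated ones. Myeloid cells held few UMIs (medians of 1047 to 2446 per cell) beside tumor cells (8891.5 to 19843), so the myeloid class held 0.687% and 0.696% of the control UMIs and 2.80% and 3.50% of the treated UMIs. Pairs of libraries shared 54 to 215 kept cell barcodes, and leaving these out ended no call of Cd44 given below.

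All levels below are in CPM, with the total taken over the cells of a class or of a library. They are counts of 3′ ends, and levels are compared between cells and libraries but not between genes. In such sums, fewer cells of a type and less RNA per cell cannot be told apart. Where 4 values follow each other, the 2 control libraries come first and the 2 treated ones after them, each by number.

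Over all 4404 kept cells and 45339368 UMIs, the files held 1994 UMIs of Cd44, 850 of Bmi1, 806 of Klf4 and 215 of Notch1. The other 6 genes had fewer than 10 UMIs each. Of the Cd44 UMIs, 1307 lay in tumor cells, 594 in myeloid cells, 57 in B cells, 10 in T cells and 26 in other cells. Klf4 had 704 UMIs in tumor cells and 87 in myeloid cells, Notch1 had 181 and 27, and Bmi1 had 832 and 7. Nearly all Bmi1 UMIs thus lay in keratin-positive cells, whereas many Cd44 UMIs lay outside them. Keratin-positive cells held 93.1% to 99.0% of all UMIs of a library. On GRCm38 (GENCODE vM21), Cd44 lies on chromosome 2 at 102811141 to 102901665 on the minus strand and Klf4 on chromosome 4 at 55527143 to 55532466 on the minus strand. Notch1 lies on chromosome 2 at 26457903 to 26516663 on the minus strand, and Bmi1 on chromosome 2 at 18677018 to 18686629 on the plus strand. Apart from the microRNA gene Mir6996 inside Notch1, no gene on the same strand overlaps these 4.

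Of the Cd44 UMIs, tumor cells held 95.3% and 91.2% in the first and second control library, and 60.9% and 52.4% in the first and second treated library. With exact Clopper-Pearson intervals at 95%, which cover counting error only, the lowest control share was 87.2% to 94.3% and the highest treated share 57.0% to 64.7%. The share was 93.3% ± 2.92 (SD, n = 2) in the control libraries and 56.7% ± 6.02 (SD, n = 2) in the treated ones. Myeloid cells held 4.66% and 8.42% of the Cd44 UMIs in the control libraries and 32.5% and 41.7% in the treated ones, with 0.691% and 3.15% of all UMIs on average. The 2 groups did not overlap for either share, nor for the share of all UMIs that each of these classes held.

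For the transcription factor Klf4, tumor cells held 100% (Control 1), 96.9% (Control 2), 78.0% (Treated 1) and 84.2% (Treated 2) of the UMIs. Myeloid cells held 0% and 2.50% of them in the control libraries and 17.4% and 14.5% in the treated ones. For the receptor Notch1, tumor cells held 96.7%, 100%, 80.7% and 77.1% of only 30, 32, 57 and 96 UMIs in the same order. The Polycomb gene Bmi1 differed from these 3, with 100%, 99.5%, 96.1% and 96.6% of its UMIs in tumor cells. Tumor cells held 99.0%, 99.0%, 94.5% and 93.1% of all UMIs, so the Bmi1 share stood slightly above the share of all UMIs in each library, while the Cd44 share stood below it in each.

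**Figure D1:**
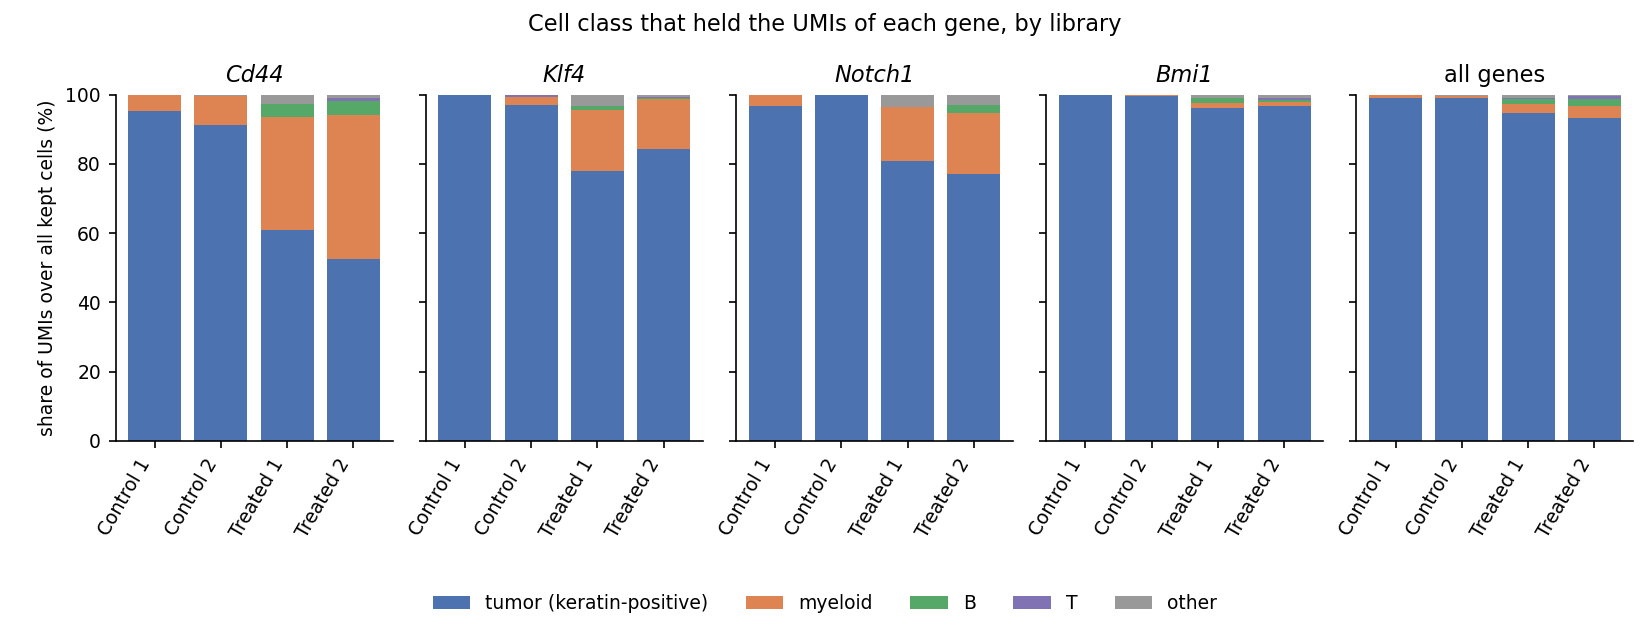
Share (percent) of the UMIs of Cd44, Klf4, Notch1 and Bmi1 that lay in tumor, myeloid, B, T and other cells of each library, beside the share of all UMIs. The tumor part of the Cd44 bar falls from 95.3% and 91.2% in the control libraries to 60.9% and 52.4% in the treated ones, while the Bmi1 bars stay at 96.1% or more.

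The first comparison asked which cells carried each gene at the higher level within a library. Cd44 was at 165 CPM (Control 1), 345 (Control 2), 571 (Treated 1) and 772 (Treated 2) in myeloid cells, against 23.3, 26.3, 31.7 and 36.5 CPM in tumor cells of the same libraries. Every myeloid value lay above every tumor value, and within a library the ratio ran from 7.05 to 21.1. In edgeR, with the library as a block over 13 sums of at least 20 cells, Cd44 was 15.5-fold higher in myeloid cells (log2 fold change 3.95 ± 0.23 SE, Benjamini-Hochberg adjusted p = 4.85e-14). Of the 10 genes 4 could be tested in this fit, and 3 were called higher and 1 lower in myeloid cells. Calls were common in general, since 32.2% of the 6880 genes tested were higher in myeloid cells and 32.8% lower.

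Klf4 was at 0, 59.99, 104 and 98.7 CPM in myeloid cells and at 12.1, 16.4, 13.8 and 21.6 CPM in tumor cells. The myeloid level was the higher one in 3 of 4 libraries. In Control 1, with 0 UMIs of Klf4 in 41 myeloid cells, a count of 0 allowed up to 44.9 CPM, above the tumor value. Klf4 was 4.87-fold higher in myeloid cells (log2 2.28 ± 0.33, edgeR adjusted p = 1.33e-06). Notch1 was at 15.0, 0, 24.7 and 37.3 CPM in myeloid cells, on 1, 0, 9 and 17 UMIs, and at 3.01, 3.38, 3.74 and 6.10 CPM in tumor cells. It was 5.43-fold higher in myeloid cells (log2 2.44 ± 0.58, edgeR adjusted p = 0.000623).

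Bmi1 went the other way. It was at 0, 15.0, 8.24 and 6.58 CPM in myeloid cells, on 0, 1, 3 and 3 UMIs, and at 17.8, 22.1, 16.2 and 20.8 CPM in tumor cells, so the tumor level was the higher one in 4 of 4 libraries, although the 0 UMIs of Control 1 allowed up to 44.9 CPM in its myeloid cells. The myeloid level was 0.397 of the tumor level (log2 -1.33 ± 0.58, edgeR adjusted p = 0.0451). The call held under 4 of 10 alternatives, among which the adjusted p ran from 0.0129 to 0.209. It was lost without Control 1 (adjusted p = 0.0915) and without Treated 1 (adjusted p = 0.102). With the relative log expression factors in place of TMM the median over all genes moved from -0.07 to 0.17 on the log2 scale, the 3 higher calls held, and that of Bmi1 did not.

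B cells could be summed in the treated libraries only. Cd44 was at 129 CPM in the B cells of Treated 1 (24 UMIs) and 114 CPM in those of Treated 2 (33 UMIs), 3.13 to 4.06 times the tumor cell level of the same library. It was called higher in B than in tumor cells (3.37-fold, log2 1.75 ± 0.32, edgeR adjusted p = 7.07e-05), as were 23.4% of the 6880 genes tested. Klf4 had 3 and 1 UMIs in B cells, Notch1 0 and 2, and Bmi1 3 and 2. None of these 3 was called against tumor cells (adjusted p = 0.302, 0.842 and 0.450). T cells reached 20 cells in Treated 2 alone, where Cd44 stood at 103 CPM on 9 UMIs. Against tumor cells the difference was 1.03 ± 0.62 on the log2 scale (edgeR adjusted p = 0.237), and none of the 4 genes was called, beside 11.6% of genes called higher and 11.3% lower. In the other cells of Treated 1 and Treated 2, where an erythroid list (Hba-a1, Hba-a2, Hbb-bs, Hbb-bt and Alas2) summed to 75618 and 378154 CPM, Cd44 was at 114 and 126 CPM on 17 and 8 UMIs. In Treated 1 that list also reached 94169, 78311 and 102666 CPM in myeloid, B and T cells, so it did not set the other cells apart there. In Treated 2 it was lower in these classes than in other cells, at 124934, 64922 and 61286 CPM.

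**Figure D2:**
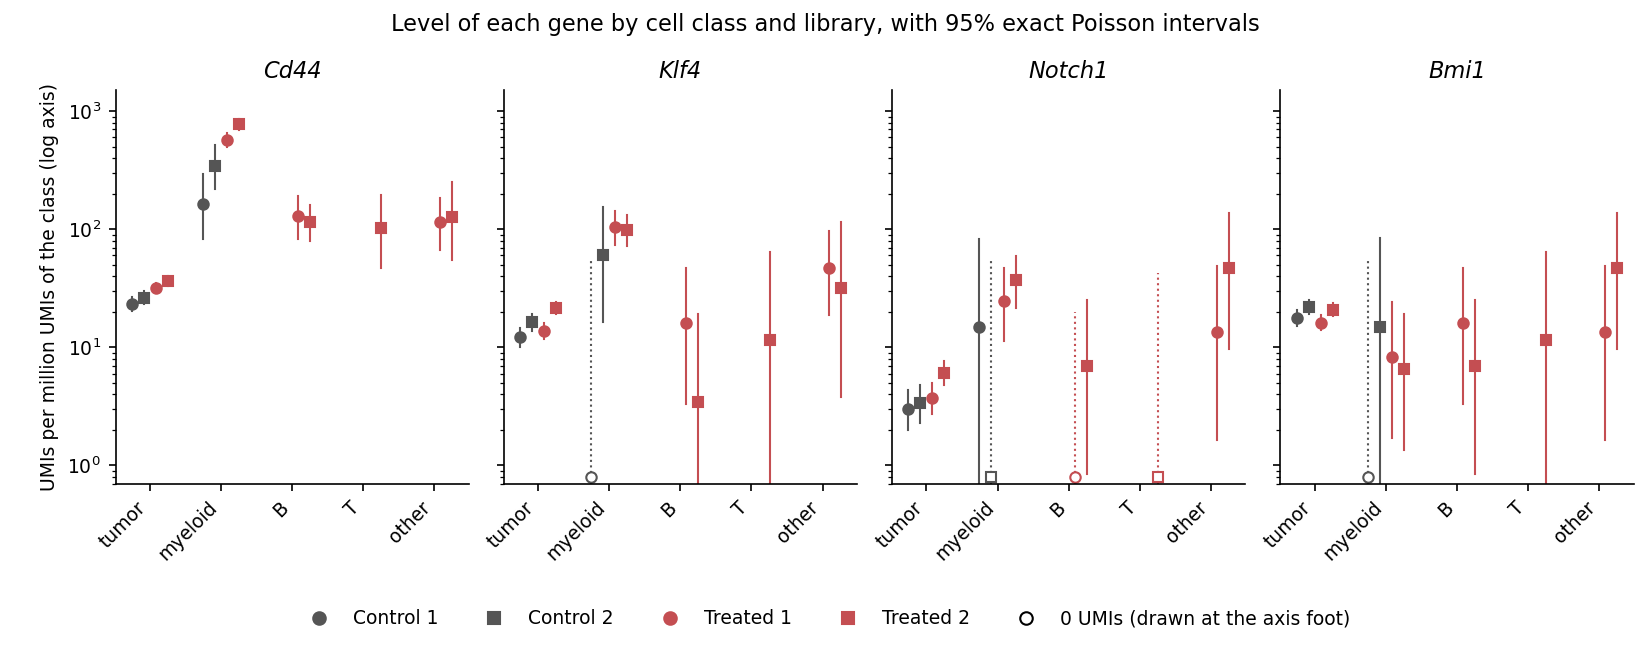
Level (CPM, log axis) of Cd44, Klf4, Notch1 and Bmi1 in each class with at least 20 cells, 1 point per library, with exact Poisson intervals at 95% as bars. Open symbols at the foot of the axis stand for 0 UMIs. The myeloid points of Cd44, at 165 to 772 CPM, lie above all tumor points, at 23.3 to 36.5 CPM, and the tumor points of Bmi1 lie above the myeloid ones of the same library.

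The share of cells with a UMI depends on depth, so cells of each class were thinned to 1000 UMIs, leaving out shallower cells. Cd44 was then found in 6.06% (2 of 33), 25.0% (6 of 24), 36.9% (58 of 157) and 46.4% (78 of 168) of the myeloid cells, the controls first. The tumor cell share at the same depth was 2.37%, 1.70%, 3.03% and 2.58%, and the B cell share was 12.3% and 12.2% in the treated libraries. The exact intervals of the tumor and myeloid shares did not overlap in 3 of the 4 libraries, the exception being Control 1, and those of the B share overlapped neither in both treated libraries. For Klf4 the myeloid share was 0%, 8.33%, 11.5% and 11.9%, against 0.711%, 1.52%, 1.76% and 1.38% of tumor cells. Keratin itself was also found outside the tumor class, at 211 to 538 CPM of Krt8 and Krt18 in myeloid cells against 2429 to 4723 in tumor cells, and its part in the tumor and myeloid values was not tested.

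Myeloid cells were divided, after their values were seen, into cells with at least 2 UMIs of the complement genes C1qa, C1qb and C1qc, cells with at least 2 UMIs of the neutrophil genes Csf3r and Retnlg, and the remainder. Cd44 was at 447 and 889 CPM in the C1q cells of Treated 1 and Treated 2 (48 and 24 cells), at 120 and 706 CPM in the Csf3r and Retnlg cells (16 and 51 cells), and at 633 and 757 CPM in the remainder (235 and 156 cells). The remainder held 31 and 21 cells in the control libraries, with Cd44 at 150 and 368 CPM. Cd44 was therefore found in all 3 divisions in both treated libraries. Klf4 was at 79.0 and 103 CPM in the C1q cells, at 0 and 30.7 CPM in the Csf3r and Retnlg cells, and at 118 and 112 CPM in the remainder. The Csf3r and Retnlg cells held only 0 and 2 UMIs of Klf4, and the exact Poisson interval in Treated 1 reached 221 CPM. Their Cd44 value in Treated 1 also rested on 2 UMIs.

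The second comparison asked whether the genes differed between SP11-treated and control tumors. Over all cells the controls had 24.2 and 28.5 CPM of Cd44 and the treated libraries 49.2 and 64.9 CPM. Cd44 rose 1.94-fold (log2 0.96 ± 0.14, edgeR adjusted p = 7.69e-05), in a fit in which 9.11% of 12149 genes were called higher and 1.63% lower. The call held under all 16 alternatives run, with log2 fold changes of 0.81 to 1.10. The other keratin and leukocyte limits among them could not change this fit, since it used all kept cells whatever their class. Klf4 was at 12.0, 16.7, 16.8 and 23.9 CPM (log2 0.34 ± 0.18, adjusted p = 0.251). Notch1 was at 3.08, 3.34, 4.38 and 7.37 CPM (log2 0.71 ± 0.28, adjusted p = 0.121). Bmi1 was at 17.7, 21.9, 15.9 and 20.04 CPM (log2 -0.29 ± 0.15, adjusted p = 0.266), with groups that overlapped. Of the 4 genes tested over all cells, Cd44 was the 1 called. Single libraries decided this for Klf4 and Notch1, since Klf4 was called without Control 2 (log2 0.58, adjusted p = 0.0453) and without Treated 1 (log2 0.53, adjusted p = 0.04998), and Notch1 was called without Treated 1 (log2 0.99, adjusted p = 0.0257).

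In tumor cells none of the 4 genes tested was called. Cd44 was at 23.3, 26.3, 31.7 and 36.5 CPM in the order of libraries used above, with a difference of 1.26-fold (log2 0.33 ± 0.13, unadjusted p = 0.0250, edgeR adjusted p = 0.256). Both treated values lay above both control values, but how many of all genes did so was not counted. Klf4 was at 12.1, 16.4, 13.8 and 21.6 CPM (log2 0.18 ± 0.19, adjusted p = 0.711). Notch1 was at 3.01, 3.38, 3.74 and 6.10 CPM (log2 0.49 ± 0.28, adjusted p = 0.433). Bmi1 was at 17.8, 22.1, 16.2 and 20.8 CPM (log2 -0.24 ± 0.16, adjusted p = 0.510). The direction of Klf4 rested on single libraries, with a log2 fold change of -0.00137 without Control 1 and -0.11 without Treated 2. In this fit 1.81% of 11588 genes were called higher and 0.501% lower, and 1691 genes had an unadjusted p under 0.05. DESeq2 called 0 of the 4 genes as well. The median of the 4 log2 fold changes was 0.26, against -0.00 over all genes tested, and the other 6 genes did not pass the filter on low counts.

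In myeloid cells only Cd44 and Klf4 passed the filter on low counts. Cd44, at 165, 345, 571 and 772 CPM on 11, 23, 208 and 352 UMIs, was 2.69-fold higher in the treated libraries (log2 1.43 ± 0.34, edgeR adjusted p = 0.0140), in a fit in which 2.93% of 2932 genes were called higher and 2.39% lower. This call rested on Control 1, the library with 11 UMIs, since without it the log2 fold change was 0.92 with an adjusted p of 0.296. It was also lost with a keratin limit of 10 UMIs (log2 1.25, adjusted p = 0.341), under which 0 genes were called in this class. In the myeloid class the erythroid list summed to 284, 30368, 94169 and 124934 CPM and the B gate genes to 0, 15.0, 258 and 140 CPM, higher in both treated libraries than in the controls, and their part in the Cd44 values was not tested. Klf4, at 0, 59.99, 104 and 98.7 CPM, was not called (log2 1.77 ± 0.73, adjusted p = 0.141), but it was called without Control 2 (adjusted p = 0.0288), where the 1 remaining control library held 0 UMIs.

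Whether the change of Cd44 differed between the 2 classes was tested as an interaction of class and group. This fit had no library block, so the tumor and myeloid sums of a library entered as separate samples. The change was larger in myeloid than in tumor cells by 1.20 ± 0.34 on the log2 scale (unadjusted p = 0.00112), but the adjusted p was 0.101 in edgeR, beside 0.102% of 11735 genes called in that direction and 0.597% in the other. Klf4, Notch1 and Bmi1 had adjusted p of 0.506, 0.796 and 0.989. The median over all genes in this contrast was 0.41, so the value of Cd44 stood above it. The call of Cd44 was sensitive, since its adjusted p was above the threshold under 9 of 16 alternatives and below it under the others, among them leaving out Control 2 (log2 1.93, adjusted p = 0.0423) or Treated 1 (log2 1.5, adjusted p = 0.00711).

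**Figure D3:**
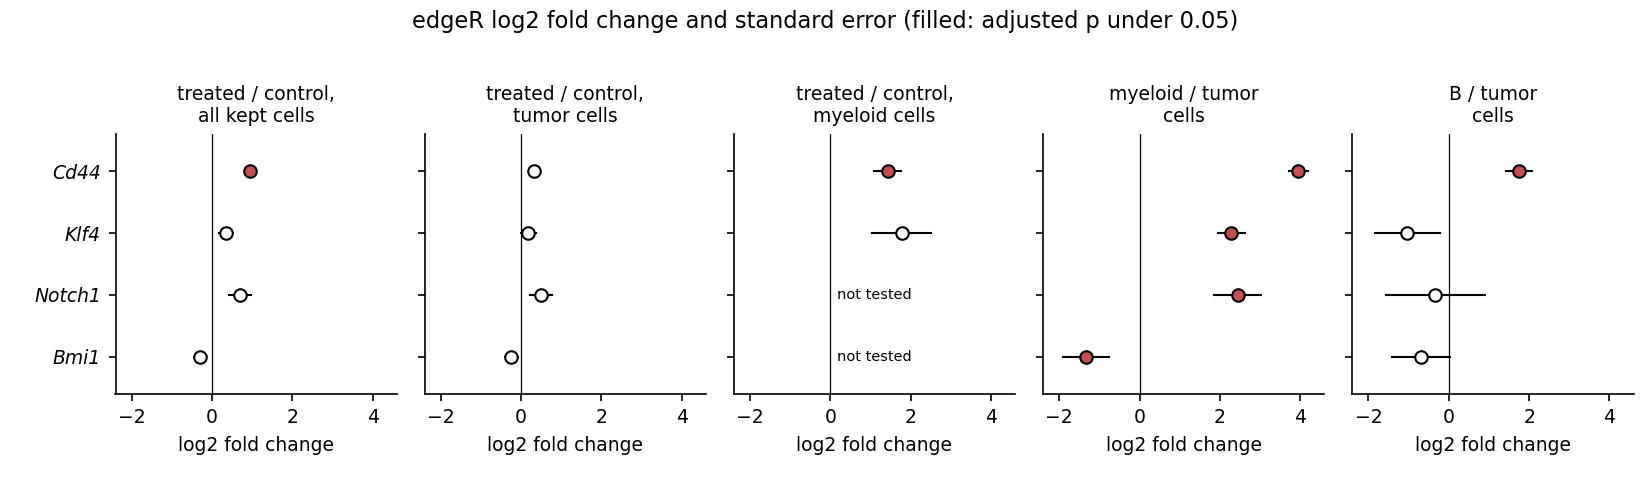
Log2 fold change of treated against control libraries from edgeR for Cd44, Klf4, Notch1 and Bmi1, over all cells, in tumor cells and in myeloid cells, and of myeloid and of B cells against tumor cells in the last panels, with bars of 1 SE and filled symbols for an adjusted p under 0.05. For treatment Cd44 stands at 0.96 over all cells, 0.33 in tumor cells and 1.43 in myeloid cells, the tumor cell symbols are all open, and Cd44 is the farthest to the right against tumor cells in both last panels.

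The level over all cells is the sum, over classes, of the share of UMIs that a class holds times the level in that class. The difference between treated and control libraries was therefore divided into a part from changed shares, taken at the mean level of both libraries, and a part from changed levels, taken at the mean share. This was done for each of the 4 pairs of a control and a treated library, and a class with under 20 cells in either library was counted as composition in whole. It is a description, with no test. For Cd44 the difference over all cells was 30.7 CPM, from 26.4 ± 3.03 to 57.1 ± 11.1 (SD, n = 2 libraries each). Changed shares made up 13.5 CPM of it (9.76 to 17.6 over the pairs), or 44.0%, and changed levels 17.2 CPM (9.25 to 25.4). The myeloid class brought 19.7 CPM of the difference, 11.6 through its share and 8.18 through its level. The tumor class brought 7.45 CPM, with -1.54 through its share and 8.99 through its level. Most of the difference in Cd44 over all cells thus lay in myeloid cells, which held 3.15% of the treated UMIs on average.

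For Klf4 the difference over all cells was 5.96 CPM, of which changed shares made up 1.25 CPM (0.698 to 1.72). The part from changed levels was 4.71 CPM but ran from -1.66 to 11.2 over the pairs, so its direction depended on which libraries were paired. For Notch1 the difference was 2.67 CPM, with 0.539 CPM from changed shares and 2.13 (0.788 to 3.44) from changed levels. For Bmi1 the difference was -1.82 CPM, with -0.401 CPM from changed shares (-0.588 to -0.225) and -1.41 (-5.78 to 2.97) from changed levels. The part from changed shares was thus below 0 for Bmi1 and above 0 for the other 3 genes.

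**Figure D4:**
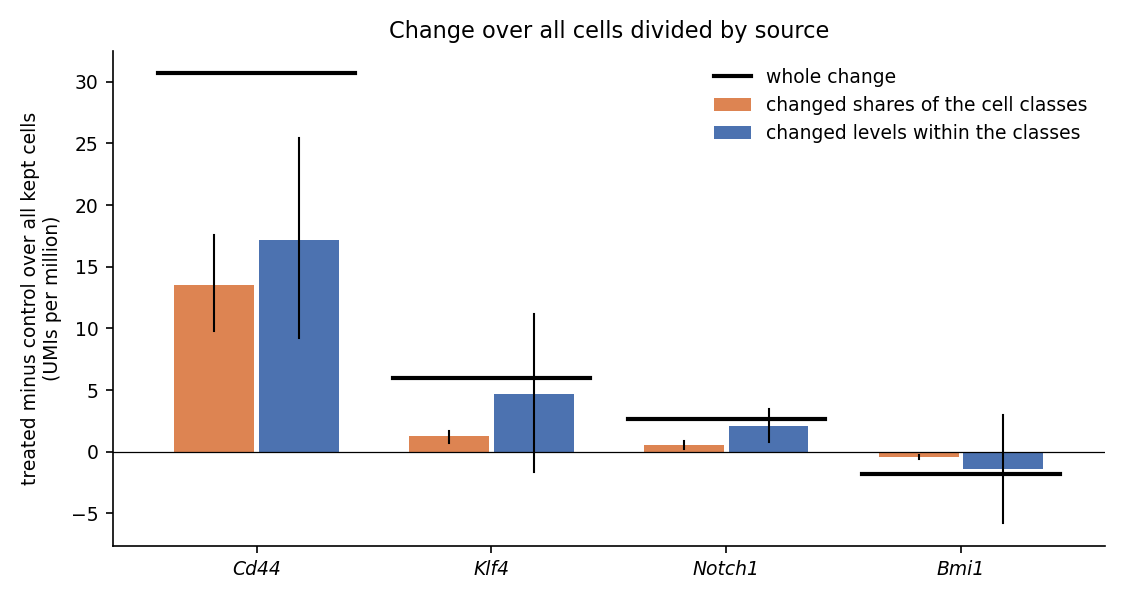
Difference in level over all cells between treated and control libraries (CPM, mean of 4 pairs), with the parts from changed class shares and from changed levels within classes. Lines give the range over the pairs and the black bar the whole difference. For Cd44 the 2 parts are 13.5 and 17.2 CPM of 30.7 CPM, and for Klf4 and Bmi1 the range of the level part crosses 0.

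Some keratin-positive cells also met a leukocyte gate. They numbered 27 of 845 (3.195%), 34 of 528 (6.44%), 309 of 1256 (24.6%) and 151 of 582 (25.9%), the control libraries first. The B gate was met by 11, 13, 87 and 51 of the keratin-positive cells. In these, 6 B cell markers outside the gates summed to 0, 5.71, 1566 and 498 CPM, so the gate was hardly matched by other B markers in the controls. Cd44 in keratin-positive cells that met the myeloid gate was at 37.5, 36.2, 48.4 and 50.2 CPM (13, 23, 236 and 108 cells), and in tumor cells that met no leukocyte gate it was at 23.2, 26.3, 27.6 and 33.2 CPM. The myeloid-gated tumor cells had the higher value in each library. In the control libraries these values rested on 6 and 16 UMIs, and their exact Poisson intervals overlapped those of the ungated cells. In the treated libraries the intervals did not overlap. In the ungated tumor cells the treated libraries were 1.14-fold above the control libraries (log2 0.19 ± 0.15, edgeR adjusted p = 0.668). Without the gated cells the share of Cd44 UMIs that lay in tumor cells was 45.8% in the treated libraries on average. The interaction with class then passed the threshold for Cd44 (log2 1.34, adjusted p = 0.0388).

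Leukocyte and erythroid RNA also differed between groups within the ungated tumor cells. A list of 8 myeloid markers outside the gates summed to 94.2, 109, 162 and 127 CPM there. The B cell list summed to 9.36, 7.88, 55.3 and 44.9 CPM, and the erythroid list to 273, 177, 10467 and 5052 CPM. Most of the B cell sum in each library was Cd74, which made up nearly all of it in the controls and less in the treated libraries. The remaining genes of the B cell list also had a higher sum in both treated libraries than in both controls. With Cd74 the list is not particular to B cells. It summed to 13864 and 10092 CPM in the myeloid cells of the control libraries, where 2 and 1 of its 6 genes were detected. The treated values were the higher ones for all 3 lists, and their part in the Cd44 values of tumor cells was not tested. Klf4 in the ungated cells was at 12.4, 16.9, 13.1 and 21.6 CPM, Notch1 at 3.01, 3.199, 3.59 and 5.94 CPM, and Bmi1 at 18.1, 21.4, 14.8 and 22.8 CPM. For these 3 genes the values lay close to those of all tumor cells.

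**Figure D5:**
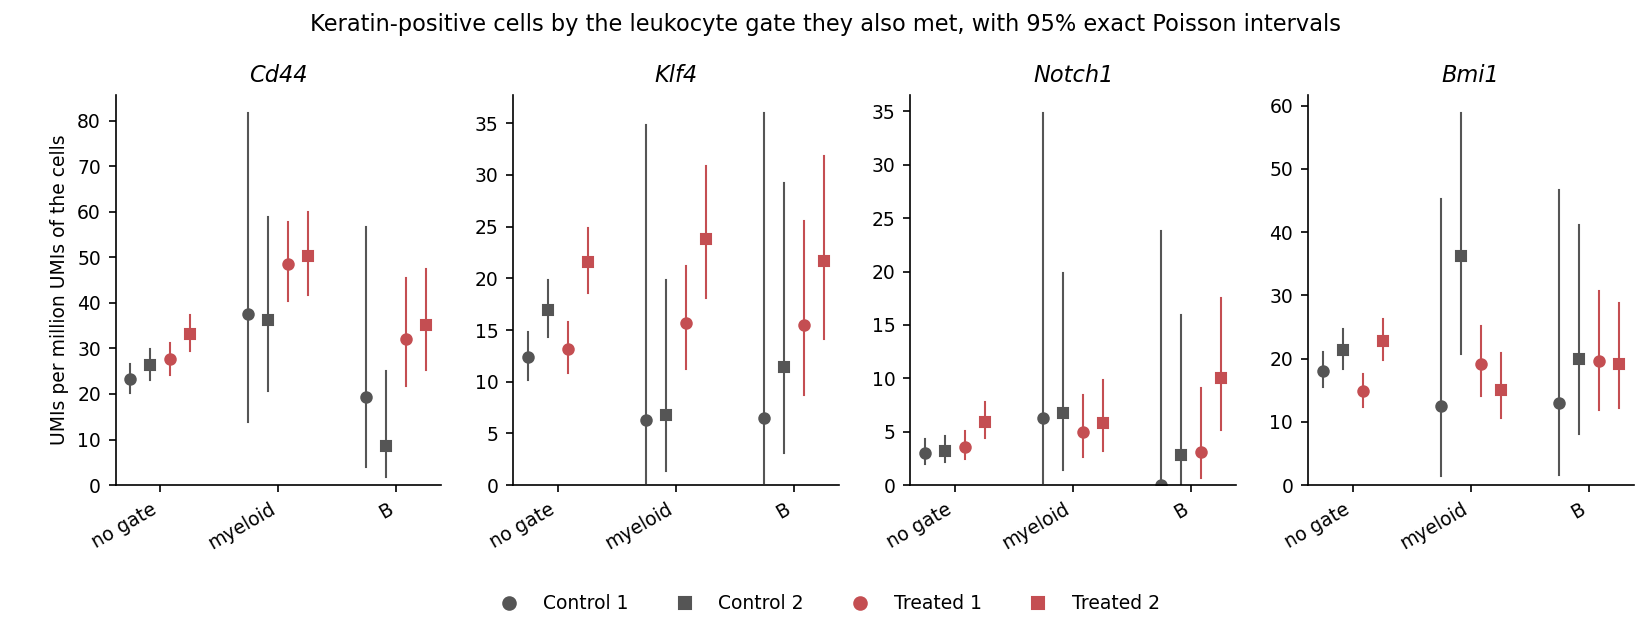
Level (CPM) of Cd44, Klf4, Notch1 and Bmi1 in keratin-positive cells of each library, for those that met no leukocyte gate and those that met the myeloid or the B gate, with exact Poisson intervals at 95% as bars. Cd44 in cells that met the myeloid gate stands at 36.2 to 50.2 CPM, above the cells that met no gate (23.2 to 33.2 CPM) in every library. The intervals of these cells overlap in the control libraries and not in the treated ones. The B gate points of the control libraries stand for 11 and 13 cells, in which B cell markers outside the gates summed to 0 and 5.71 CPM.

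At the level of single tumor cells, each cell was thinned to 5000 UMIs. Cd44 was found in 11.01% (Control 1), 11.9% (Control 2), 13.2% (Treated 1) and 17.0% (Treated 2) of 799, 511, 1151 and 575 tumor cells. The difference of the group means was 3.65 percentage points (two-sided exact permutation test, p = 0.33, the smallest value that 2 against 2 libraries allow). Klf4 was found in 6.26%, 8.81%, 6.60% and 10.96% of these cells (difference 1.25 points, exact permutation p = 0.67). Notch1 was found in 1.38%, 1.17%, 2.35% and 1.39% (0.593 points, exact permutation p = 0.33), and Bmi1 in 8.26%, 9.39%, 8.43% and 13.2% (2.00 points, exact permutation p = 0.67). Thinned to 2000 UMIs instead, Cd44 was found in 4.42%, 6.26%, 5.70% and 6.55% of tumor cells. At that depth the groups overlapped (0.786 points, exact permutation p = 0.67). Without thinning, Cd44 was found in 23.6%, 34.8%, 25.1% and 47.9% of tumor cells, an order that followed the median depth of 10935, 17214, 8891.5 and 19843 UMIs per cell except between Control 1 and Treated 1.

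At 5000 UMIs, 75.5%, 71.8%, 72.5% and 62.3% of tumor cells held no UMI of any of the 10 genes, and 22.2%, 25.0%, 24.2% and 33.0% held 1 of them. Cells with 2 of the genes made up 2.38%, 3.13%, 3.04% and 4.52%. Cells with 3 or more numbered 0, 0, 3 and 1. Cd44 and Bmi1 were found in the same cell in 1.13%, 0.391%, 1.13% and 1.91% of tumor cells, beside 0.910%, 1.12%, 1.11% and 2.25% for the product of their separate shares. The joint share of this pair was thus above the product in 2 of 4 libraries and below it in the other 2. Of the 6 pairs among Cd44, Klf4, Notch1 and Bmi1, the joint share lay above the product in 2, 3, 5 and 1 in the order of libraries, and in Treated 1 the pair Cd44 and Notch1 was at 0.521% beside 0.310%. The joint cells were few, at most 13 for a pair in a library, and in each library the exact interval of each pair held the product.

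Aldh1a1 had 9 UMIs in the kept cells, 8 in Treated 1 and 1 in Treated 2, divided as 3 in tumor, 3 in myeloid and 3 in other cells. The 3 in other cells came from 2 cells of Treated 1. The control libraries held 0 UMIs of Aldh1a1, which allows a level of up to 0.308 CPM in Control 1 and 0.313 CPM in Control 2, beside 0.615 CPM in Treated 1 and 0.0768 CPM in Treated 2. Kit had 6 UMIs, 4 in Treated 1 and 2 in Treated 2, of which 5 lay in myeloid cells and 1 in a tumor cell. The 5 defining mast cell genes listed (Cpa3, Mcpt4, Tpsb2, Fcer1a and Ms4a2) were at 0 UMIs in every class and library apart from 1 UMI in tumor cells of Treated 1. Pou5f1 had 8 UMIs, all in tumor cells, with 1, 2, 2 and 3 in the order of libraries. None of these 3 genes passed the filter on low counts in any comparison.

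Sox2, Nanog and Prom1 had 0 UMIs in all 4404 cells, which allows up to 0.0662 CPM over the 45339368 UMIs. They were therefore not detected in any class at this depth. The limit for a single class was weaker, at 44.9, 45.0, 8.24 and 6.58 CPM in myeloid cells in the order of libraries. In B cells it was 16.1 and 10.4 CPM in the treated libraries. On GRCm38, Sox2 lies on chromosome 3 at 34650405 to 34652461 inside Sox2ot on the same strand, Pou5f1 on chromosome 17 at 35506018 to 35510772, Nanog on chromosome 6 at 122707489 to 122714633 and Kit on chromosome 5 at 75574916 to 75656722, all on the plus strand. Prom1 lies on the minus strand of chromosome 5 at 43993620 to 44102032 and overlaps Gm42716 on that strand, and Aldh1a1 lies on the plus strand of chromosome 19 at 20492715 to 20643465.

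The 10 genes were set beside 133 further genes of the same pathways and families, in 8 lists. In tumor cells 81 of them could be tested, and 3 were called higher (3.70%, beside 1.81% of all genes tested) and 0 lower (beside 0.501%). These were Cbx6, a Polycomb subunit, Cd74, the invariant chain of MHC class II, which also associates with CD44, and Alcam, an adhesion molecule. Cbx6 was at 7.67, 6.12, 12.5 and 12.9 CPM in tumor cells (log2 0.75 ± 0.19, edgeR adjusted p = 0.0440), a call that was lost in DESeq2 (adjusted p = 0.313) and with no filter on low counts. Cd74 was at 28.3, 14.9, 153 and 75.3 CPM in tumor cells (log2 2.29 ± 0.30, adjusted p = 0.000365), and at 9.04, 7.66, 36.6 and 25.8 CPM in those that met no leukocyte gate, where it was still called (log2 1.80, adjusted p = 2.27e-07). In DESeq2 the call of Cd74 in tumor cells was lost (adjusted p = 0.0896). Alcam was at 0.104, 0.211, 4.07 and 2.31 CPM in tumor cells (adjusted p = 0.00137) and did not pass the filter on low counts in the ungated ones. Cd74 stood at 5979 to 13849 CPM in myeloid cells and at 16579 and 17513 CPM in B cells. Its UMIs in ungated tumor cells are the same ones counted in the B cell list above. How much of them came from leukocytes was not tested.

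By list, 0 of 14 tested genes of the Notch pathway were called in tumor cells, 1 of 22 Polycomb genes (Cbx6), 0 of 10 of the Klf family and 0 of 3 of the pluripotency genes. The counts were 0 of 11 for the aldehyde dehydrogenases, 1 of 8 for CD44 partners and ligands (Cd74), 0 of 7 for blood stem and progenitor genes and 1 of 6 for other surface stem markers (Alcam). Only 3 of 18 pluripotency genes had enough UMIs to be tested at all. Over all cells 10 of 86 tested genes were called higher (11.6%, beside 9.11% of all genes) and 0 lower. In myeloid against tumor cells 25 of 56 were higher (beside 32.2% of all genes tested) and 17 lower (beside 32.8%).

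Some of the genes called over all cells had higher values in myeloid or B cells than in tumor cells, among them Vcan, Klf2 and Notch2, and Cd74 as given above. Vcan, a proteoglycan that binds hyaluronan, was at 0.411, 0.940, 8.31 and 7.06 CPM over all cells (log2 3.35 ± 0.37, edgeR adjusted p = 2.59e-06), at 0, 0, 2.52 and 0.494 CPM in tumor cells and at 59.8 to 198 CPM in myeloid cells. Klf2, a factor of resting lymphocytes and endothelium, was at 27.9, 39.5, 50.6 and 74.5 CPM over all cells (log2 0.73 ± 0.16, adjusted p = 0.00445). In tumor cells Klf2 was at 25.3, 34.9, 31.7 and 33.1 CPM, where the groups overlapped, and it reached 585 and 912 CPM in B cells. The receptor Notch2 was at 11.6, 14.1, 20.8 and 21.4 CPM over all cells (log2 0.57 ± 0.16, adjusted p = 0.0217), and it was at 11.3, 13.9, 15.5 and 15.7 CPM in tumor cells and at 45.0 to 151 CPM in myeloid cells. In DESeq2 the calls over all cells of Notch2, Cbx6 and Lmo2 were lost (adjusted p = 0.151, 0.1801 and 0.104). Also called over all cells in edgeR were Cbx6, Cd74, Alcam, Mmp9 (a matrix protease), Lmo2 (a transcriptional partner in blood progenitors) and Aldh3b1 (an aldehyde dehydrogenase).

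The genes whose levels ran most like each of the 4 were found over 10455 genes and the 13 sums of a class in a library, by the correlation of log2(CPM + 10). The sums share libraries and differ in depth, so the correlations are a description. For Cd44 these were Zfp36 (r = 0.975), Il1b (0.972) and Rgs2 (0.967). Il1b, a cytokine of activated myeloid cells, was at 299 to 1180 CPM in myeloid cells and 0.633 to 18.0 CPM in tumor cells. For Klf4 they were Itprid2 (0.932), Rnf141 (0.910) and Nav1 (0.906), and for Notch1 Cdk14 (0.926), Gk (0.926) and Dpysl2 (0.925). For Bmi1 they were Camsap1 (0.936), Cse1l (0.914) and Hmces (0.910). Cse1l was at 49.3 to 61.9 CPM in tumor cells and 0 to 59.99 CPM in myeloid cells. The genes most like Cd44 were higher in myeloid than in tumor cells, as Cd44 was. Their selection over sums of both classes favored this, so it is not a separate result.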

How the data were processed

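For each of the 4 samples the authors deposited a matrix of raw UMI counts per gene and cell barcode, made with Cell Ranger 7.1.0 per the file headers and not normalized. The submitters' processing notes name mm10, whereas the text of the study names hg38, and gene positions were taken from GENCODE vM21 on GRCm38. The 10 genes and all gene lists were chosen with earlier results of these data known.

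Cells with at least 200 genes and at most 10% of UMIs on the 13 mitochondrial genes were kept. Cells with at least 5 UMIs of Krt8 and Krt18 were classed as tumor. Each of the others went to the class with most UMIs among those reaching 2 UMIs of the myeloid (12 genes), B (6) or T (6) markers, and otherwise to other cells. No clustering or integration was used. Scrublet, as run in scanpy 1.11.5 with a random seed of 1, called 5.13% and 8.13% of control cells and 0.928% and 1.47% of treated cells as doublets. This seed was chosen because the automatic threshold failed in Control 1 with another seed, which also called 0.0546% in Treated 1. Scrublet called 46, 46, 16 and 14 tumor cells in the order of libraries, whereas 27, 34, 309 and 151 tumor cells met a leukocyte gate. Called cells were kept in the main analysis. UMIs were summed per class and library, and sums of at least 20 cells entered the quasi-likelihood test of edgeR 4.0.16, run in R 4.3.3, after filterByExpr and with TMM factors. P-values were adjusted by Benjamini-Hochberg over all genes tested, with a threshold of 0.05. Comparisons between classes had the library as a block, but the interaction of class and group had none. Shares have exact Clopper-Pearson intervals and levels exact Poisson intervals at 95% (scipy 1.17.1), which cover counting error only, and a count of 0 allows up to 3 counts. The groups hold 2 libraries each, with 9739676, 9574906, 12999822 and 13024964 UMIs in the kept cells.

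The genes named were the 10 genes and, from the wider lists, up to 4 per list with the smallest p among those called in tumor cells or over all cells. A result that this rule would name is not reported here. The fits were tested on simulated data with known changes. The alternatives were other limits for mitochondrial UMIs, genes, keratin and leukocyte markers, leaving out called doublets or keratin-positive cells that met a leukocyte gate, DESeq2 1.42.0, relative log expression factors, no filter for low counts, a block for the replicate number and leaving out each library. Leaving out barcodes shared between libraries, and giving classes under 20 cells a level of their own in the division of the change, were chosen after seeing the data.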

Additional observations from a re-analysis of the deposited data

Results flagged for a closer look

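Aldh1a1 was also found among the barcodes that the limits on genes and mitochondrial UMIs removed, which no comparison used. The removed barcodes numbered 61 and 29 in the control libraries and 446 and 392 in the treated ones, and genes of hemoglobin and heme synthesis made up 12.3% and 1.54% of their UMIs in the control libraries and 85.7% and 86.6% in the treated ones. Aldh1a1 had 0 UMIs in the removed barcodes of both control libraries, 1 UMI in Treated 1 (2.46 CPM) and 5 UMIs in Treated 2 (8.23 CPM). All 5 of the latter came from barcodes with under 200 genes. The 0 UMIs of the control libraries allow up to 34.0 and 42.1 CPM, so these barcodes are too shallow to show whether the groups differed.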

How the results depend on the processing

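Of 370 single-gene alternatives, 343 kept direction and side of the threshold. Of 256 for comparisons, 219 stayed near the main value. The cause of a change was not tested unless stated. Without keratin-positive cells that met a leukocyte gate, the mean share of UMIs in tumor cells in the treated libraries was 45.8% for Cd44, 75.2% for Klf4, 72.3% for Notch1 and 94.99% for Bmi1. With a mitochondrial limit of 20%, the control share was 95.4% for Notch1 and 99.1% for Bmi1, and with a keratin limit of 10 UMIs it was 95% and 99.0%, with 94.7% for Bmi1 in the treated libraries. With at least 500 genes the treated share was 82.5% for Notch1 and 97.0% for Bmi1, and with a keratin limit of 2 UMIs it was 82.7% and 97.3%. The number of the 10 genes called in myeloid against tumor cells was 2 in place of 4 with a mitochondrial limit of 20%, with 500 genes and with a leukocyte limit of 3 UMIs, where only 2 were tested. With a keratin limit of 10 UMIs, 0 were called in myeloid cells in place of 1. The difference in effect between myeloid and tumor cells was called for 1 gene (Cd44) in place of 0 with 500 genes, a keratin limit of 2, a leukocyte limit of 3 and without the leukocyte-gated tumor cells.

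With each library left out, the genes called numbered 1 to 3 over all cells, 0 to 2 in myeloid cells, 2 to 4 in myeloid against tumor cells, 1 to 1 in B, 0 to 0 in T and in tumor cells and 0 to 1 for the difference in effect. Where this left 1 library in a group, that library was assumed to vary like the others. For T cells, leaving out Treated 2 gave no value. The composition part ran from 10.6 to 16.4 CPM for Cd44, 0.992 to 1.52 for Klf4, 0.338 to 0.739 for Notch1 and -0.540 to -0.261 for Bmi1. The difference in the share of tumor cells with a UMI ran from 1.73 to 5.57 points for Cd44, -0.929 to 3.42 for Klf4, 0.116 to 1.07 for Notch1 and -0.399 to 4.39 for Bmi1.

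Values that changed sign were all of differences that had not been called. The share of tumor cells with Klf4 differed by -0.0265 points without Control 1 and by -0.929 without Treated 2, and that with Notch1 by -0.0626 when at least 2 UMIs were asked. For Bmi1 it was -0.0870 points at 2000 UMIs per cell, -0.0113 with at least 2 UMIs, -0.209 without leukocyte-gated cells and -0.399 without Treated 2. The log2 fold change of Klf4 in tumor cells was -0.00137 without Control 1 and -0.11 without Treated 2, in a range of -0.11 to 0.43 over the libraries left out. In B against tumor cells this range was -2.64 to 0.0404 for Klf4 and -0.25 to 0.21 for Notch1, with 0.13 for Notch1 without shared barcodes. The difference in effect of Bmi1 ran from -0.45 to 8.48, the latter without Control 2, where the remaining control myeloid cells held 0 UMIs, and was -0.26 without shared barcodes.

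Same-numbered samples were not shown to be paired. The deviations of Control 1 and Treated 1 from their group means had a correlation of 0.125 over 11588 genes, and they share only a number. With the replicate number as a block, 2 genes were called over all cells (Cd44 and Notch1, log2 0.69, adjusted p = 0.0435 for the latter) and 1 for the difference in effect (Cd44, adjusted p = 0.0128), and no other call of the 10 genes changed. Over all genes the block moved the higher and lower calls from 210 and 58 to 654 and 384 in tumor cells, from 1107 and 198 to 1515 and 705 over all cells, from 86 and 70 to 129 and 110 in myeloid cells and from 12 and 70 to 39 and 120 for the difference in effect. DESeq2 called 104 and 45 in tumor cells, 644 and 115 over all cells and 14 and 119 for the difference. A keratin limit of 2 UMIs gave 345 and 77 in tumor cells, and leaving out leukocyte-gated tumor cells gave 93 and 61 there and 16 and 27 for the difference. Without a filter on low counts the difference had 15 and 122, and without shared barcodes myeloid cells had 54 and 31. In tumor cells the counts were 69 and 9 without Control 2 and 345 and 80 without Treated 2, and in B against tumor cells 644 and 437 without Treated 2 in place of 1611 and 1686.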
